A study of Saccharomyces cerevisiae with 6 samples.

Results

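Budding yeast takes up inorganic phosphate through a small family of membrane transporters, and 8 genes of this system are described here across the 6 arrays of the study. They are the high-affinity transporter genes PHO84 and PHO89, the low-affinity transporter genes PHO87 and PHO90, the vacuolar transporter gene PHO91, the transport regulator genes SPL2 and PHO86, and GIT1, which encodes a permease for glycerophosphoinositol. These are 8 of the 5449 Saccharomyces cerevisiae genes that were measured, and each was read from 1 probe set of its own. The members were chosen by their role in phosphate uptake and on differences between the labelled groups already seen in these data, above all those of PHO84 and SPL2. Their differences are therefore given as a description, without p-values, and where the text says that a member was or was not called, this only places it in the fit over all genes.

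The RNA came from BY4741, a haploid laboratory strain of mating type a in which HIS3, LEU2, MET15 (now MET17) and URA3 are known to be deleted in whole or in part, a background that the labels give to all 6 RNAs. On these arrays MET17 and URA3 lay below the background limit described below, while LEU2 (mean levels 8.79 and 8.52 under the wild type and deletion labels) and HIS3 (11.55 and 11.60) lay above it, and no table used here places their probes within the genes. The groups are 3 arrays labelled wild type and 3 labelled ypr045c∆, that is, with a deletion of YPR045C (THP3), whose product is linked to transcription elongation and mRNA processing. All cells were in exponential growth in the rich medium YPD. The labels do not name the marker that replaced the gene, the number of mutant clones, or the number of cultures behind the 3 RNAs of a group. Any p-value therefore covers only array-to-array spread, part of which may be technical.

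In phosphate-rich medium the cyclin and kinase pair Pho80 and Pho85 phosphorylates the transcription factor Pho4 and keeps it out of the nucleus. When phosphate runs short the inhibitor Pho81 blocks the kinase, and Pho4, together with Pho2, switches on PHO84, PHO89, SPL2, GIT1 and secreted phosphatase genes. The low-affinity transporters Pho87 and Pho90 carry an SPX domain, a module that senses phosphate status, and are known to be made in high phosphate as well.

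Levels are log2 of the quantile-normalized intensity plus 16, and differences are always labelled deletion minus labelled wild type. "Called" means an adjusted p below 0.05 in limma, with Benjamini-Hochberg adjustment over all 5449 genes. Background was taken as the 95th percentile of the mean levels of the 1746 fission yeast probe sets on these arrays, a level of 6.48 or an intensity of 73.6. Summed intensity per array ranged from 17790600 to 18431400, and precision is limited by there being 3 arrays per group. The THP3 probe set gave a mean level of 9.29 under the wild type label and 9.62 under the deletion label, a log2 difference of 0.33 (95% interval -0.26 to 0.91). The targeted gene thus goes against the labels, although no table used here places its probes within the gene, so groups are named by label and each direction rests on the labels. All 5 mating type a marker genes stood between 11.35 and 13.79 in both groups, against 6.54 to 7.52 for 3 markers of mating type alpha. Deviations from the group means, across 5449 genes, correlated between the arrays numbered 3 (r = 0.61). They also did between array 2 labelled wild type and array 1 labelled deletion (0.48) and between array 1 labelled wild type and array 2 labelled deletion (0.47).

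PHO84, the proton-coupled transporter that does most phosphate uptake when phosphate is scarce, went from near background to a bright signal. In arrays 1 to 3 labelled wild type the deposited intensity was 116, 78.1 and 86.3. In arrays 1 to 3 labelled deletion it was 7871, 7815 and 8022. The groups lay far apart, and the deletion-labelled arrays varied little, with a level of 12.97 ± 0.012 (SD, n = 3) against 6.77 ± 0.26 in the others. The log2 difference was 6.20 ± 0.12 (SE), a 73.4-fold difference with a 95% interval of 60.2- to 89.5-fold. The ratio of the deposited means was 84.5, and over 18 other ways of processing the fitted fold lay between 51.2 and 85.1. Between arrays of the same number the log2 difference was 5.90, 6.36 and 6.33, but the numbers, here and below, were not taken as pairs. In RNA from a whole culture, a higher level in every cell and a larger share of expressing cells cannot be told apart.

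SPL2, whose small protein holds back low-affinity uptake by acting on Pho87, moved in the same direction. Under the wild type label its intensity was 41.5, 28.6 and 36.03, and under the deletion label 365, 409 and 426. All 3 arrays labelled wild type lay below the background limit, and all 3 labelled deletion lay above it. The mean level in the latter was 8.69 ± 0.14 (SD, n = 3), which is 4.61-fold above the limit. This is a lower bound for the fold between the group means, not for each array. The fitted log2 difference of 3.02 ± 0.11 (SE) depended on the constant added before taking logs, with 3.48 at a constant of 1 and 2.22 at 64. Between arrays of the same number it was 2.72, 3.18 and 3.17.

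PHO89, the sodium-coupled high-affinity transporter known to work best at alkaline pH, differed far less than PHO84. Wild-type-labelled arrays gave intensities of 209.7, 175 and 155, and deletion-labelled arrays 233, 296 and 219.9. The groups did not overlap, but the highest array labelled wild type and the lowest labelled deletion were 0.12 apart on the log2 scale. The level was 7.65 ± 0.15 and 8.01 ± 0.15 (SD, n = 3 each), a log2 difference of 0.36 ± 0.10 (SE). Over 18 other ways of processing the difference lay between 0.27 and 0.44, and 9 of them left PHO89 uncalled. Among these were 5 of the 6 fits with an array left out, all but the one without wild_type replicate 1, with differences of 0.36 without wild_type replicate 2, 0.27 without wild_type replicate 3, 0.39 without ypr045c_deletion replicate 1, 0.27 without ypr045c_deletion replicate 2 and 0.41 without ypr045c_deletion replicate 3.

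GIT1, the permease for glycerophosphoinositol, a phosphate-containing lipid breakdown product, stayed close to the background limit. Wild-type-labelled arrays gave intensities of 109, 87.6 and 74.96, and deletion-labelled arrays 90.4, 125 and 69.9. The groups overlapped, and array 3 labelled deletion lay below the limit. The log2 difference was -0.0018, with a 95% interval of -0.43 to 0.42, and its sign changed in 7 of the 18 other ways of processing.

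**Figure D1:**
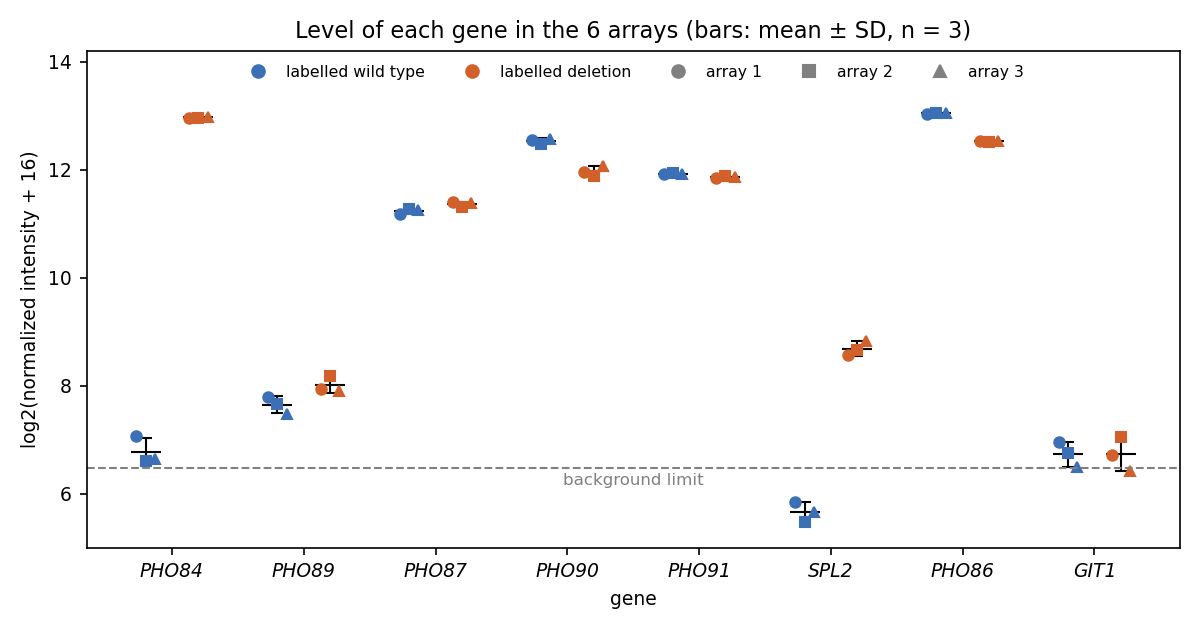
Level of each of the 8 genes, as log2(normalized intensity + 16), in the 3 arrays labelled wild type (blue) and the 3 labelled deletion (orange), with marker shapes for the array numbers, bars for mean ± SD (n = 3) and a dashed line at the background limit of 6.48. PHO84 moves from 6.77 to 12.97 and SPL2 from below the limit to 8.69, while GIT1 stays near the limit in both groups.

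The fitted differences of the low-affinity transporters PHO87 and PHO90 had opposite signs, but PHO90 lies on chromosome X, where the median log2 difference was -0.79. PHO87 was 0.08 above the median of genes off chromosome X, and PHO90 was 0.23 less negative than the chromosome X median. PHO87, a plasma membrane transporter with an SPX domain, had intensities of 2411, 2474 and 2437 under the wild type label and of 2643, 2495 and 2594 under the deletion label. The groups did not overlap, yet the lowest array labelled deletion was 0.05 above the highest labelled wild type on the log2 scale. The log2 difference was 0.13 ± 0.05 (SE; 95% interval 0.02 to 0.24) and was not called. With each array centred on its median it was -0.02.

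PHO90, the closest relative of PHO87, had intensities of 6181, 5652 and 6033 under the wild type label and of 3926, 3717 and 4257 under the deletion label. Every array labelled deletion was below every array labelled wild type. The level went from 12.53 ± 0.04 to 11.97 ± 0.10 (SD, n = 3 each), a log2 difference of -0.56 ± 0.06 (SE). This made PHO90 1.47-fold lower, with a 95% interval of 1.34- to 1.63-fold. Between arrays of the same number the log2 difference was -0.59, -0.60 and -0.49.

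PHO91, which moves phosphate out of the vacuole into the cytosol, had intensities of 3991, 3955 and 3831 under the wild type label and of 3592, 3722 and 3652 under the deletion label. The 2 groups were narrow and did not overlap, but the log2 difference was only -0.06 ± 0.04 (SE; 95% interval -0.15 to 0.03) and was not called. It was negative under all 18 other ways of processing.

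PHO86, an endoplasmic reticulum protein that Pho84 needs to leave for the plasma membrane, had intensities of 8545, 8417 and 8545 under the wild type label and of 5816, 5784 and 5992 under the deletion label. The groups did not overlap. PHO86 was lower in the arrays where PHO84 was high, and it lies on chromosome X, where 295 of 316 genes were called lower. A link of its level to either was not tested. The level went from 13.04 ± 0.016 to 12.53 ± 0.014 (SD, n = 3 each), a log2 difference of -0.52 ± 0.04 (SE), or 1.43-fold.

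In all, 3 of the 8 genes were called higher (PHO84, SPL2 and PHO89), beside 11.6% of all 5449 genes, and 2 were called lower (PHO90 and PHO86), beside 10.2%. Together 5 of 8 were called, beside 21.7% of all genes. The groups did not overlap for 7 of the 8 genes, beside 41.2% of the 5437 genes without a missing value. Since the members were chosen with this comparison in view, nothing is read from these counts.

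**Figure D2:**
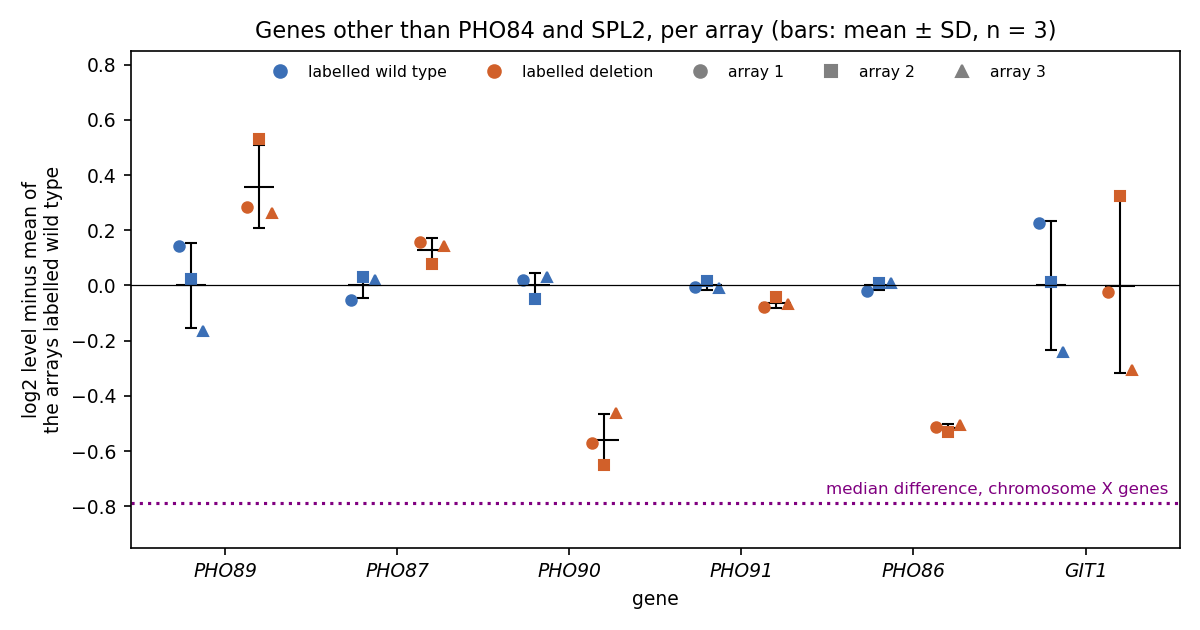
Level in each array minus the mean of the arrays labelled wild type, on the log2 scale, for the 6 genes other than PHO84 and SPL2, with bars for mean ± SD (n = 3) and a dotted line at the median difference of chromosome X genes (-0.79). PHO90 and PHO86 are lower in all 3 arrays labelled deletion but lie above the dotted line, and PHO89 is higher by 0.36 with a wide spread.

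The lower members are the 2 that lie on chromosome X, where most genes were lower under the deletion label. There 295 of 316 genes were called lower and 0 higher (limma), with a median log2 difference of -0.79 against 0.04 for the 5133 genes elsewhere. Set against all other genes of the same array, the median level of chromosome X genes stood 0.79 ± 0.0086 (SD, n = 3) higher under the wild type label and differed by -0.14 ± 0.010 under the deletion label. The other 6 members lie on chromosomes II, III, VIII, XIII and XIV. The difference of PHO90 was 0.23 less negative than the chromosome X median, and that of PHO86 0.27 less negative. Among chromosome X genes, 250 had a lower value than PHO90 and 65 a higher one, and for PHO86 the counts were 265 and 50.

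Differences on chromosome X were smaller among bright genes, and both members are bright. Over the 79 genes with the highest mean level, which include PHO90 and PHO86, the median log2 difference was -0.57, with the middle part of the values (25th to 75th percentile) from -0.73 to -0.42. Over the next 79 it was -0.80. PHO90 and PHO86, at -0.56 and -0.52, both lay within that range. The part of the chromosome and of brightness in these 2 differences was not tested.

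The genes next to the members on the chromosome were compared with them. Of all genes 11.6% were called higher and 10.2% lower, and of those off chromosome X 12.3% and 5.0%. Around PHO90 all 10 measured genes, 5 on either side, were called lower (limma), with a median log2 difference of -0.80, and around PHO86 9 of 10 were, with a median of -0.78. Around PHO84 the 10 neighbours had a median of 0.09 and ranged from -0.31 to 0.36, with 2 called higher and 2 lower. Around SPL2 the median was 0.06 and the range -0.20 to 0.48, with 2 called higher and 0 lower. Around PHO89, whose own difference was 0.36, the median was 0.13 and the range -0.26 to 0.63, so a neighbour differed by more than PHO89 itself, and again 2 were called higher and 0 lower. Around PHO87, PHO91 and GIT1 the medians were 0.08, 0.03 and -0.07, and of the 10 neighbours of each, 1 was called higher (near GIT1) and 1 lower (near PHO91).

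**Figure D3:**
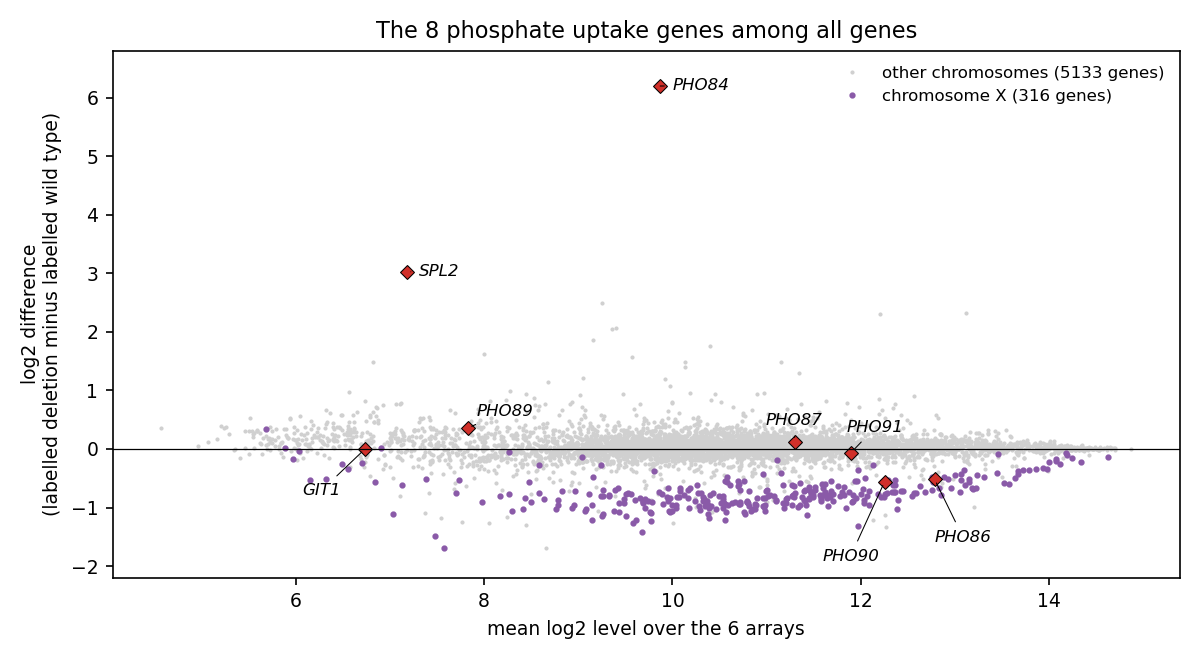
Log2 difference (labelled deletion minus labelled wild type) against the mean log2 level over the 6 arrays for 5133 genes of other chromosomes (grey) and 316 genes of chromosome X (purple), with the 8 phosphate uptake genes as red diamonds. PHO84 lies at 6.20, and SPL2 at a fitted 3.02 that rests on wild-type-labelled arrays below the background limit. PHO90 and PHO86 lie within the band of chromosome X genes, which shifts toward 0 at high levels.

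Regulators of the pathway were followed in a list of 7 genes, of which 2 rose and 1 fell (limma, here and for the lists below). Of all 5449 genes 11.6% were called higher and 10.2% lower. The lists were made with earlier results of these data known, so their adjusted p-values only describe. PHO81, the kinase inhibitor gene and itself a known Pho4 target, rose 1.51-fold (log2 difference 0.59 ± 0.06 SE, adjusted p = 0.00061). Its intensity was 1690, 1842 and 1598 under the wild type label, below all of the 2575, 2415 and 2482 under the deletion label. PHO4 rose by less (0.30 ± 0.05), and median centring ended the call (adjusted p = 0.38; range over 18 alternatives 0.0038 to 0.38). The cyclin gene PHO80, the kinase gene PHO85 and the co-activator gene PHO2 had differences of 0.0028, 0.07 and -0.08. KCS1, an inositol pyrophosphate kinase gene, fell by 0.19, but was not called without wild_type replicate 1 (limma adjusted p = 0.099), wild_type replicate 2 (0.11), ypr045c_deletion replicate 1 (0.070), ypr045c_deletion replicate 2 (0.14) or ypr045c_deletion replicate 3 (0.099), with a range of 0.013 to 0.14 over 18 alternatives.

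Phosphatase genes rose in 3 of 7 measured cases and fell in 0, beside 11.6% and 10.2% of all genes. PHO5, the main secreted acid phosphatase, had intensities of 303, 303 and 305 under the wild type label and of 1318, 1388 and 1303 under the deletion label. Its log2 difference was 2.06 ± 0.04 (SE), or 4.18-fold. PHO11, another secreted acid phosphatase, rose 2.64-fold, though its probe set is of a type that can match several transcripts and its near-identical copy PHO12 was not analysed apart. PHO8, the vacuolar alkaline phosphatase, rose by 0.31 ± 0.04, a call that median centring ended (adjusted p = 0.34; range 0.0012 to 0.34). PHO3, the acid phosphatase known to be made in high phosphate, had a difference of -0.14 and was not called.

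Polyphosphate is the storage form of phosphate in the vacuole. Its genes rose in 3 of 7 measured cases and fell in 1, beside 11.6% and 10.2% of all genes. VTC3, VTC1 and VTC2, subunits of the polyphosphate polymerase complex, rose by 1.31 ± 0.04, 0.57 ± 0.05 and 0.20 ± 0.05 (SE) on the log2 scale. VTC4, the catalytic subunit, fell by 0.27 and lies on chromosome X like PHO90 and PHO86. Its difference was less negative than the chromosome X median of -0.79. It also lay above the 25th to 75th percentile range (-0.73 to -0.42) of the 79 brightest chromosome X genes, which include VTC4. The VTC2 call ended with median centring (adjusted p = 0.66, the highest of a range from 0.014), and without wild_type replicate 1 (limma adjusted p = 0.077), wild_type replicate 3 (0.070), ypr045c_deletion replicate 1 (0.085), ypr045c_deletion replicate 2 (0.099) or ypr045c_deletion replicate 3 (0.061). The polyphosphatase genes PPN1 and PPX1 had differences of 0.16 and 0.10 and were not called. VTC5 and PPN2 were not analysed here.

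Of 4 other phosphate-responsive or SPX-domain genes 1 rose and 1 fell, beside 11.6% and 10.2% of all genes. PHM6, a gene of unknown function whose expression follows phosphate levels, was below the background limit in all 3 arrays labelled wild type. Its mean level under the deletion label was 2.11-fold above that limit, a lower bound for the fold between the group means. The difference was called (limma adjusted p = 0.00064). PHM7 fell by 0.19 but was not called with the values as deposited (adjusted p = 0.37), nor without wild_type replicate 2 (0.060), wild_type replicate 3 (0.065), ypr045c_deletion replicate 1 (0.064), ypr045c_deletion replicate 2 (0.060) or ypr045c_deletion replicate 3 (0.058), with a range of 0.016 to 0.37. GDE1 and SYG1 had differences of -0.04 and 0.08.

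Both mitochondrial phosphate carrier genes fell, beside 10.2% of all genes, 93.4% of those on chromosome X and 5.0% of those elsewhere. MIR1, the main carrier and a chromosome X gene, fell by 0.53 ± 0.06 (SE), and PIC2 by 0.23 ± 0.06. MIR1 is among the 79 brightest chromosome X genes and lay within their 25th to 75th percentile range (-0.73 to -0.42). PIC2 was not called without wild_type replicate 2 (limma adjusted p = 0.080), wild_type replicate 3 (0.073), ypr045c_deletion replicate 1 (0.095) or ypr045c_deletion replicate 2 (0.094), with a range of 0.0045 to 0.095. The genes SHR3, GSF2 and CHS7, which like PHO86 serve the export of particular membrane proteins from the endoplasmic reticulum, had differences of 0.15, 0.03 and -0.08. Of these 3 genes 0 were called, beside 21.7% of all genes.

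Over all 30 measured genes of these 6 lists 9 rose and 5 fell, beside 11.6% and 10.2% of all genes. Among those that fell, VTC4 and MIR1 lie on chromosome X, where 93.4% of genes were called lower, against 5.0% elsewhere. The median log2 difference of the 30 genes was 0.09, against 0.03 for all genes and 0.06 for the 8 uptake genes. Several of the 30 genes had been seen to differ in earlier results on the same arrays, so neither their direction nor their adjusted p-values are independent evidence.

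**Figure D4:**
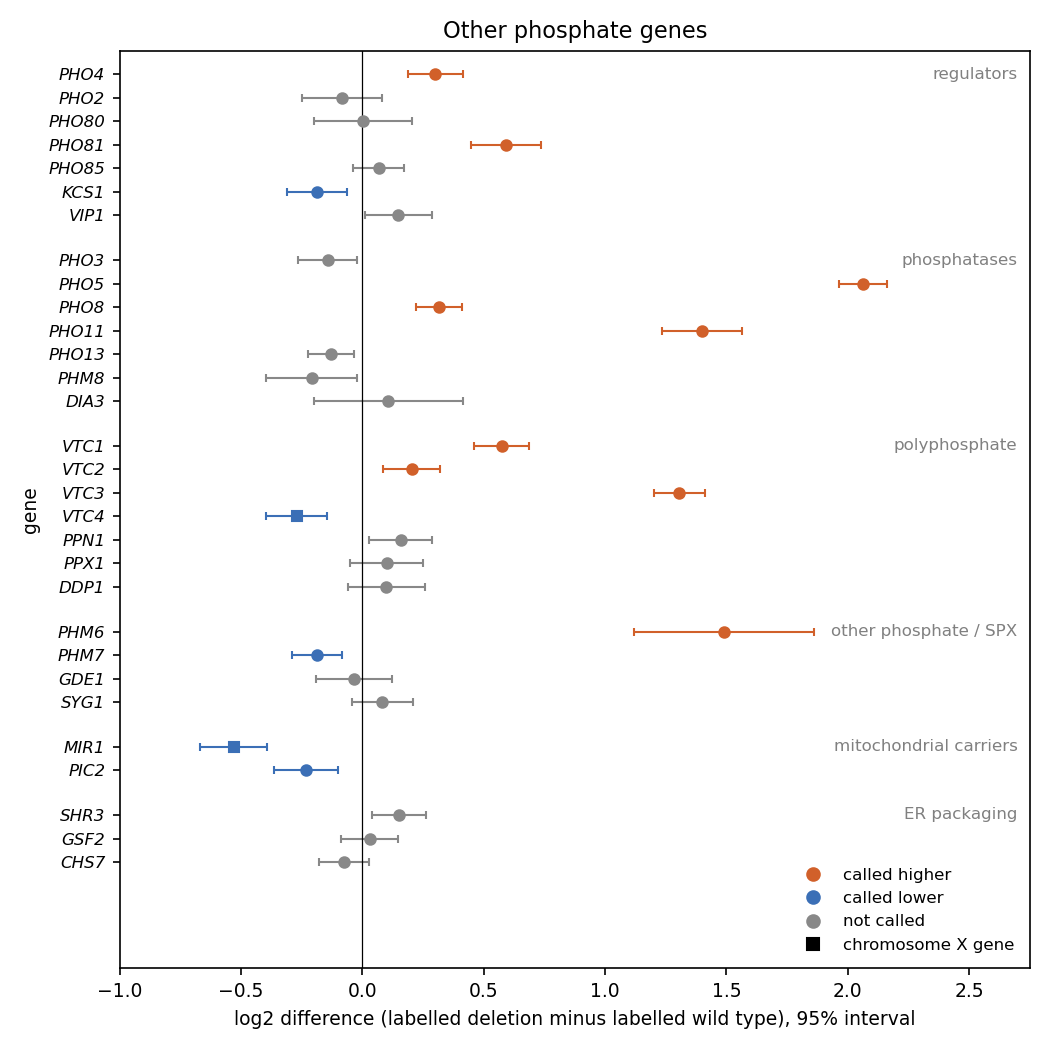
Log2 difference with its 95% interval for the 30 other phosphate genes, by list, with genes called higher in orange, called lower in blue and not called in grey, and squares for chromosome X genes. PHO5, PHM6, PHO11 and VTC3 lie above 1, and the lowest value is that of MIR1 (-0.53).

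The genes whose levels over the 6 arrays most resembled those of PHO84, among 217 genes above background in at least 1 group and with a range of at least 1, were TIR1, VTC3, SPL2, AFB1 and PHO5, with Pearson's r from 0.9978 to 0.9988. For SPL2 they were VTC3, PHO84, AFB1, TIR1 and FRE4, with r from 0.9973 to 0.9985. TIR1 encodes a cell wall mannoprotein, AFB1 a protein that binds a-factor, and FRE4 a protein related to ferric reductases. Their log2 differences were 1.48, 1.21 and 1.61. The 6 arrays form 2 clusters, so these correlations mostly carry the difference between the groups, and all genes share the same 6 arrays. The condition on the range favours genes that differ between the groups, and SPL2 met the background condition only through the arrays labelled deletion, so high values of r follow in part from the choice of the 217 genes.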

How the data were processed

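RNA levels were measured on 6 Affymetrix yeast arrays. The authors deposited an intensity for every probe set in each array, which the values show to be linear, from biotin-labelled cRNA made by the one-cycle protocol, per the labels' protocols. Summarization, background correction and scaling: not given in the sources used here. Of 10928 probe sets, 5498 had a single S. cerevisiae gene by the platform's annotation and the R64 gene table. For 47 genes with several, the brightest on average was used. The 8 genes had no missing value among the 30 in the table.

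Log2 medians of the arrays differed by up to 0.26, above the limit of 0.1 set for normalization, so all probe sets were quantile-normalized. Values were then taken as log2(value + 16), on which folds of dim genes come out too small, and fitted with limma 3.58.1 (lmFit and eBayes; R 4.3.3) with no term but the group. The fit was also run on simulated data with independent noise between arrays and a small share of genes shifted. Such data lack the correlated array deviations and the chromosome X shift, so nothing about these is read from it. Where all arrays of a group lay below the background limit, the fold of the other group's mean over the limit is given, a bound for the means. Neighbours and chromosomes come from the R64 table, whose coordinates are not printed.

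The members, gene lists and tests were chosen with earlier results of these data known. The genes named are the 8 members, list genes past the threshold with up to 3 per list that were not, and the 5 profiles most alike to PHO84 and to SPL2. The split of chromosome X genes by brightness and the neighbour windows were chosen after the data were seen. Promoter and protein sequences were not used here.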

Additional observations from a re-analysis of the deposited data

How the results depend on the processing

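Of 18 other ways of processing, 17 left the count of called genes within 1.5 times the 1184 reported, and leaving out an array gave 830 to 983. With chromosome X genes left out before normalization it was 718, and of the 6 uptake genes that remain 2 were called, PHO84 and SPL2. Without an array 4 to 5 of the 8 were called, and 10 to 12 of the other phosphate genes. PHO84, SPL2, PHO90 and PHO86 were called with the same sign in all 18 settings, or in the 17 that held chromosome X genes. The split of all calls depended on scaling, with 630 higher and 554 lower as reported. Without normalization these were 479 and 635, and under median centring 241 and 772. Median centring moved the median of all genes from 0.03 to -0.09. The chromosome X median of -0.79 was -0.82 without normalization, -0.92 with median centring and -0.76 with a constant of 64 added. Without both arrays numbered 3, 826 genes were called, 4 of the 8 uptake genes and 11 of the other phosphate genes, and with these arrays as a batch 1573, 5 and 16.

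Same-numbered arrays deviated together for number 3 (r = 0.61) but not for numbers 1 and 2 (r = -0.15 and -0.03), so the numbers were not taken as pairs. Array 2 labelled wild type deviated with array 1 labelled deletion (0.48), and array 1 labelled wild type with array 2 labelled deletion (0.47). A block of these matches was not fitted. With the number as a replicate block 1297 genes, 5 uptake genes and 14 other phosphate genes were called, and KCS1 was not (adjusted p = 0.062). Signal over background limits PHO84, SPL2, PHM6 and GIT1.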
